A study of Mus musculus with 9 samples.

Results

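Expression of 10 genes for collagen hydroxylation and lysyl oxidase crosslinking was examined in 4T1 tumors. The genes were chosen by name and by function, with earlier results of these data known. All 10 were found among the 22609 genes of the count tables. They comprised 4 lysyl oxidases (Lox, Loxl1, Loxl2, and Loxl3), 3 lysyl hydroxylases (Plod1, Plod2, and Plod3), and the 3 alpha subunits of the prolyl 4-hydroxylases (P4ha1, P4ha2, and P4ha3). 4T1 is a mouse mammary carcinoma cell line used as a model of triple-negative breast cancer, and the cells were injected orthotopically into BALB/c mice, whose age and number were not given in the labels. Fat supplied 10% of the calories in the LFD and 60% in the HFD, and the diets were fed for 6 weeks before injection and then until euthanasia. Once tumors had formed, LFD and HFD mice received vehicle (hydroxy propyl cellulose), and the HFD + EC359 mice received EC359, an inhibitor of the leukemia inhibitory factor receptor (LIFR), at 5 mg/kg on 5 days per week. There was no LFD group with EC359, so diet and drug could not be crossed.

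There were 9 RNA-seq libraries of tumor tissue, 3 per group, which held 5085357 to 9751201 counts, with the lowest totals in the LFD libraries. Levels are given as CPM, the counts of a gene relative to the library total, scaled here with TMM factors. The limit that a count of 0 allows (3 counts) was 0.308 to 0.59 CPM, for counting error only. The p-values and SDs measure the spread between the libraries of a group, and n counts libraries. The labels do not tie the libraries to separate mice or tumors. This spread was small, with a common coefficient of variation of 3.63% beyond counting error in edgeR's fit. Of the keratins of simple epithelium, Krt8 (405 to 611 CPM) and Krt18 (287 to 497 CPM) were abundant in every library, whereas the epithelial markers Epcam (0.883 to 7.77 CPM) and Cdh1 (5.55 to 29 CPM) were low, and Krt7 and Krt19 stayed below the filter on low counts. The tumors are mixtures of carcinoma and host cells, so that fewer cells of a type and less RNA per cell cannot be told apart. LFD replicate 1 stood apart from the other LFD libraries, with a mean chi-square per gene of 2.48 and 3.02 against them, where the other pairs within a group gave 1.36 to 1.57. Genes with a GC content in the lowest quartile, relative to those in the highest, were at -0.54 to -0.32 on the log2 CPM scale in the LFD libraries, at 0.10 to 0.16 in the HFD libraries, and at 0.25 to 0.30 in the HFD + EC359 libraries, so the GC trend moved with the groups. The comparisons were therefore also run after a smooth trend over GC content and exon length had been taken out of each library, which is called GC correction here.

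Fibrillar collagens are modified and crosslinked in a fixed order. In the endoplasmic reticulum, prolyl 4-hydroxylases hydroxylate the proline residues that stabilize the triple helix, and lysyl hydroxylases hydroxylate lysine residues in the helix and in its telopeptides. After secretion, the copper enzymes of the lysyl oxidase family oxidize lysine and hydroxylysine side chains to aldehydes, which then react to the covalent crosslinks of collagen and elastin fibers. In mammary tumors this crosslinking is known to stiffen the stroma, and both stromal cells and carcinoma cells can express the enzymes.

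The largest differences among the 10 genes were in the lysyl oxidases. Lox, Loxl1, and Loxl2 were higher in HFD than in LFD tumors and lower in HFD + EC359 than in HFD tumors. Loxl3 was lower in both HFD groups than in LFD tumors. The log2 fold changes of the hydroxylase genes ranged from -0.87 to 0.54, with none over 2-fold in any comparison of all libraries. A gene was taken to pass the test when its adjusted p in edgeR's quasi-likelihood test was under 0.01, and the study's own threshold also required a fold change over 2.

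**Figure D1:**
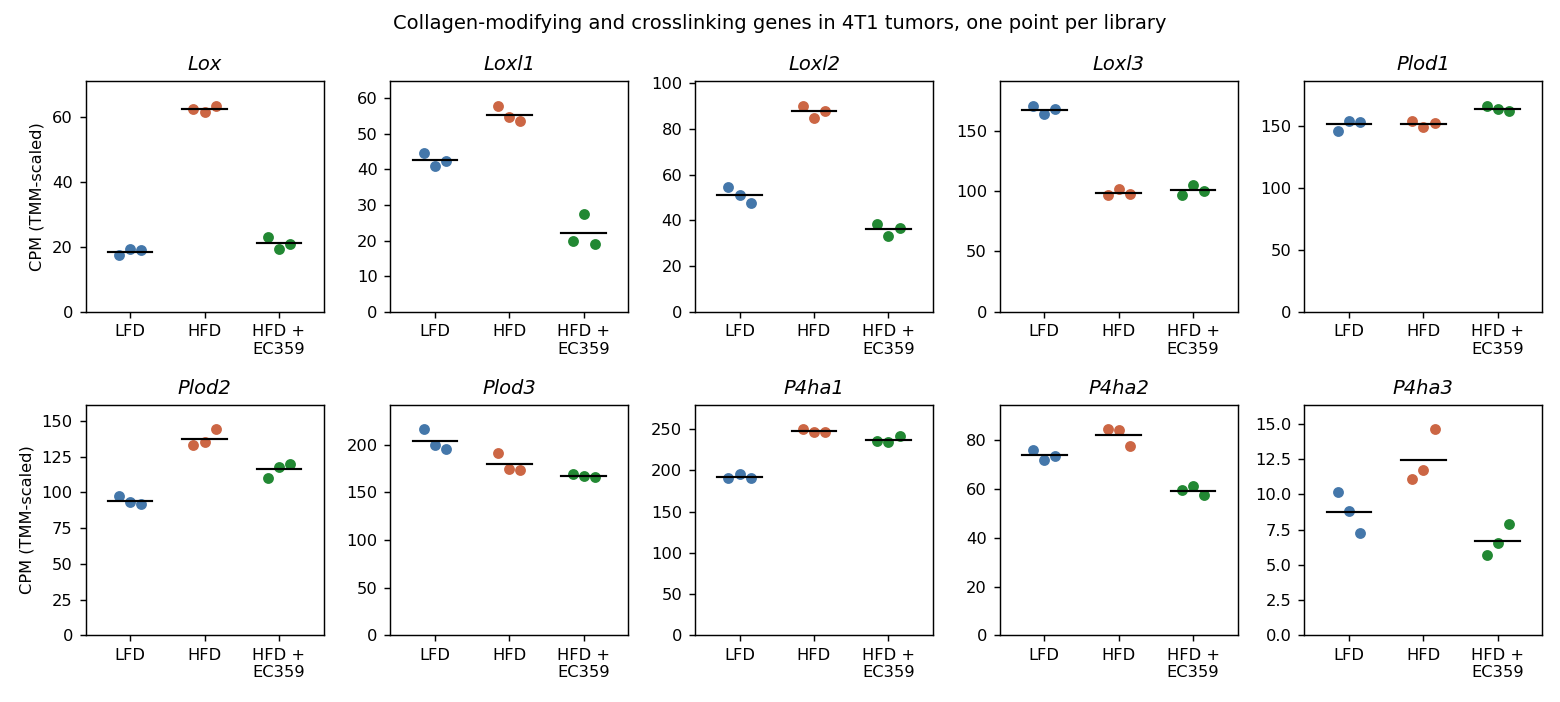
Levels of the 10 genes in CPM (TMM-scaled) in each of the 9 libraries, as points, with the group mean as a line, and with each y axis starting at 0. Lox was at 61.8 to 63.6 CPM in the HFD libraries and at 17.4 to 23.2 CPM in the other libraries, while Loxl3 was at 164 to 171 CPM in the LFD libraries and at 97 to 105 CPM in the others.

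Lox (chr18:52676892-52689362, minus strand, mm9) encodes the founding enzyme of the lysyl oxidase family, which crosslinks collagen and elastin. It measured 17.4, 19.3, and 19 CPM in the LFD libraries, 62.7, 61.8, and 63.6 CPM in the HFD libraries, and 23.2, 19.5, and 21 CPM in the HFD + EC359 libraries. The HFD libraries were all above the others, and the LFD and HFD + EC359 libraries lay close together without overlapping. Lox rose 3.36-fold in HFD against LFD tumors (log2 fold change 1.75, SE 0.0917, adjusted p = 9.88e-17). It was 2.96-fold lower in HFD + EC359 than in HFD tumors (log2 fold change -1.56, SE 0.0814, adjusted p = 1.07e-16). The difference between HFD + EC359 and LFD tumors did not pass the test (log2 fold change 0.18, SE 0.105, adjusted p = 0.133). The first and second of these comparisons share the HFD libraries, so their values are not independent.

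Loxl2 (chr14:70009283-70095641, plus strand) encodes a lysyl oxidase that acts on collagen IV and fibrillar collagens. It measured 54.8, 51.3, and 47.4 CPM in the LFD, 90.2, 85, and 88 CPM in the HFD, and 38.3, 33.3, and 36.5 CPM in the HFD + EC359 libraries. The 3 groups did not overlap, with HFD highest and HFD + EC359 lowest. Loxl2 rose 1.72-fold in HFD against LFD tumors (log2 fold change 0.78, SE 0.0691, adjusted p = 3.64e-11) and was 2.44-fold lower in HFD + EC359 than in HFD tumors (log2 fold change -1.28, SE 0.0672, adjusted p = 1.19e-16). Unlike Lox, it was also lower in HFD + EC359 than in LFD tumors, by 1.42-fold (adjusted p = 1.07e-06).

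Loxl1 (chr9:58135530-58161019, minus strand) encodes the family member best known for elastic fiber maintenance. It measured 44.6, 41, and 42.5 CPM in the LFD, 57.9, 54.8, and 53.6 CPM in the HFD, and 19.8, 27.5, and 19 CPM in the HFD + EC359 libraries. Again the 3 groups did not overlap, and HFD + EC359 replicate 2 was the highest of its group. Loxl1 rose 1.3-fold in HFD against LFD tumors (log2 fold change 0.38, SE 0.0935, adjusted p = 0.000983) and fell 2.51-fold in HFD + EC359 against HFD tumors (log2 fold change -1.33, SE 0.0959, adjusted p = 5.45e-13). Against LFD tumors it was 1.93-fold lower under EC359 (log2 fold change -0.95, adjusted p = 2.26e-09), and without HFD + EC359 replicate 2 this log2 fold change was -1.14. Its exons have the highest GC content of the 10 genes (60.8%), and after GC correction its log2 fold changes were 0.65, -1.21, and -0.56 in the 3 comparisons.

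Loxl3 (chr6:82984218-83002558, plus strand) encodes a further collagen and elastin oxidase. It measured 171, 164, and 168 CPM in the LFD, 97, 102, and 97.9 CPM in the HFD, and 97.3, 105, and 100.5 CPM in the HFD + EC359 libraries. The LFD libraries were all above the rest, and the HFD and HFD + EC359 libraries overlapped. Loxl3 fell 1.69-fold in HFD against LFD tumors (log2 fold change -0.76, SE 0.0482, adjusted p = 1.44e-14) and was 1.66-fold lower in HFD + EC359 than in LFD tumors (adjusted p = 1.1e-14). Between HFD + EC359 and HFD tumors its log2 fold change was 0.03 (SE 0.0485, adjusted p = 0.76). The remaining family member, Loxl4, which is not among the 10 genes, fell by 0.57 on the log2 scale in HFD against LFD tumors (adjusted p = 9.61e-11), and its log2 fold change between HFD + EC359 and HFD tumors was 0.08 (adjusted p = 0.262).

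The makeup of the lysyl oxidase family followed these changes. Per exon length (RPKM, that is CPM per kilobase), Lox, Loxl1, and Loxl2 together took 30.5% ± 0.683 (SD, n = 3) of the family's summed level in LFD, 56.4% ± 0.945 in HFD, and 32.3% ± 0.894 in HFD + EC359 tumors, with Loxl4 counted in the family. Lox alone took 5.65% ± 0.413, 19.3% ± 0.4, and 9.79% ± 0.918. Loxl3 was the largest part in every library, at 45.3% ± 0.139, 27.1% ± 0.879, and 41.3% ± 1.22. The summed level of the family with Loxl4 was 91.4 ± 1.76 RPKM in LFD, 90.4 ± 0.824 RPKM in HFD, and 60.2 ± 0.929 RPKM in HFD + EC359 tumors. Without Loxl4 it was 69.2 ± 1.63, 75.4 ± 0.619, and 44.4 ± 1.37 RPKM. For these 3 shares, the groups did not overlap in any comparison. An exact two-sided permutation test gave p = 0.1 each time, the smallest it can give for 3 against 3. After adjustment over 33 tests of single genes, which did not include the combined share, p was 0.122. The combined share sums the 3 oxidases that were higher in HFD tumors in these same libraries. Its separation of the HFD libraries thus follows from this grouping and is a description only.

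**Figure D2:**
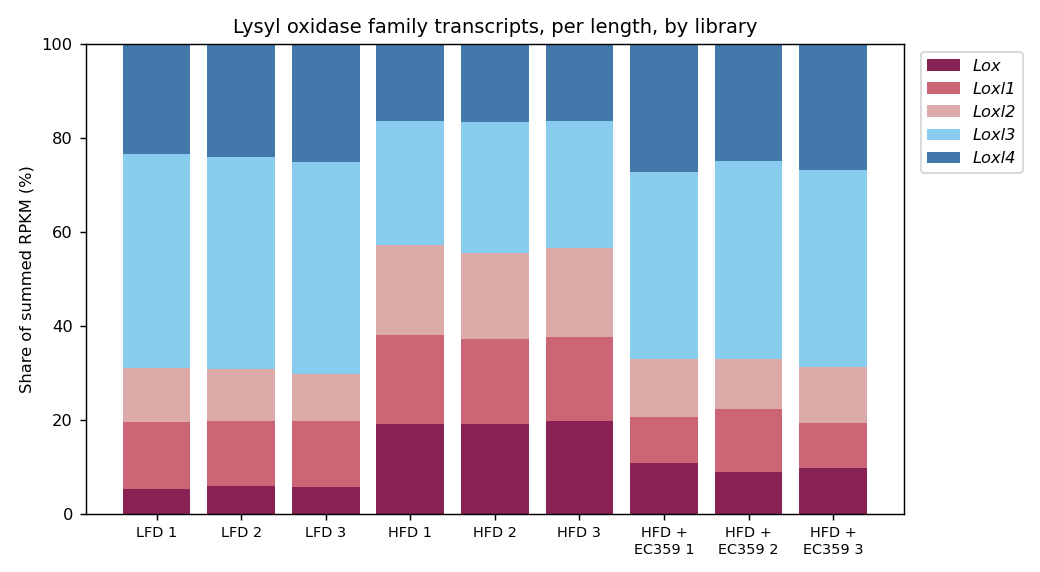
Share of each lysyl oxidase in the family's summed RPKM (%), as stacked bars, for each of the 9 libraries. Lox, Loxl1, and Loxl2 together made up 55.3% to 57.2% in the HFD libraries, 29.7% to 30.9% in the LFD libraries, and 31.3% to 32.9% in the HFD + EC359 libraries.

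Of the lysyl hydroxylases, Plod2 changed most. Plod2 (chr9:92437061-92503265, plus strand) encodes the telopeptide lysyl hydroxylase, which sets the hydroxylysine-derived type of crosslink. It measured 97.4, 93.4, and 91.6 CPM in the LFD, 133, 135, and 144 CPM in the HFD, and 110.4, 118, and 119.7 CPM in the HFD + EC359 libraries. The groups did not overlap, and the HFD + EC359 libraries lay between the others. Plod2 rose 1.45-fold in HFD against LFD tumors (log2 fold change 0.54, SE 0.0524, adjusted p = 2.62e-10), fell 1.18-fold in HFD + EC359 against HFD tumors (log2 fold change -0.23, SE 0.0474, adjusted p = 0.000283), and was 1.24-fold higher in HFD + EC359 than in LFD tumors (log2 fold change 0.31, adjusted p = 7.57e-06). Its exons have the lowest GC content of the 10 genes (43.2%). After GC correction, the log2 fold change in HFD against LFD tumors was 0.30 (adjusted p = 1.11e-05), and that in HFD + EC359 against LFD tumors was 0.0014 (adjusted p = 0.984).

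Plod3 (chr5:137462889-137472516, plus strand) encodes an enzyme that both hydroxylates lysine and glycosylates hydroxylysine. It measured 216, 199.5, and 195 CPM in the LFD, 191, 174, and 173 CPM in the HFD, and 169, 167, and 166 CPM in the HFD + EC359 libraries. The groups did not overlap, with LFD highest. It fell 1.13-fold in HFD against LFD tumors (log2 fold change -0.18, SE 0.0473, adjusted p = 0.00185) and was 1.22-fold lower in HFD + EC359 than in LFD tumors (adjusted p = 4.97e-06), while HFD + EC359 against HFD did not pass (log2 fold change -0.10, adjusted p = 0.105). None of the 3 comparisons of Plod3 passed after GC correction, and its log2 fold changes were then 0.03, -0.03, and 0.0018. The fall in HFD against LFD tumors also did not pass without HFD replicate 2 or without HFD replicate 3 (log2 fold change -0.16 in both cases). The gene overlaps Mir702 on its own strand, so the counting may have split reads between them.

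Plod1 (chr4:147283862-147310885, minus strand) encodes the lysyl hydroxylase of the helical region. Its level was 146 to 154 CPM in the LFD, 149 to 154 CPM in the HFD, and 162 to 166 CPM in the HFD + EC359 libraries. The LFD and HFD libraries overlapped, and the HFD + EC359 libraries were all above them. It passed in no comparison, with log2 fold changes of 0.0031 (adjusted p = 0.959), 0.11 (adjusted p = 0.0521), and 0.11 (adjusted p = 0.0279) for HFD against LFD, for EC359 against vehicle within HFD, and for HFD + EC359 against LFD. All 3 passed as higher after GC correction, at 0.18, 0.16, and 0.34. The summed level of the lysyl hydroxylases was 134 ± 2.9 RPKM (SD, n = 3) in LFD, 138 ± 3.19 RPKM in HFD, and 133 ± 0.313 RPKM in HFD + EC359 tumors. Within it, the share of Plod2 was 18.9% ± 0.181, 26.7% ± 1.38, and 23.6% ± 0.969, without overlap between the groups (exact permutation p = 0.1, adjusted 0.122).

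The alpha subunits of the prolyl 4-hydroxylases carry the catalytic site, and their partner is the beta subunit P4hb. P4ha1 (chr10:58786044-58836052, plus strand), the main isoform of most cells, measured 191, 196, and 190.2 CPM in the LFD, 249.6, 246, and 246 CPM in the HFD, and 236, 234, and 242 CPM in the HFD + EC359 libraries. Both HFD groups were above the LFD libraries. P4ha1 rose 1.29-fold in HFD against LFD tumors (log2 fold change 0.36, SE 0.0407, adjusted p = 5.95e-09) and was 1.24-fold higher in HFD + EC359 than in LFD tumors (log2 fold change 0.30, adjusted p = 8.96e-08). Between HFD + EC359 and HFD tumors its log2 fold change was -0.06 (SE 0.0382, adjusted p = 0.292). After GC correction, the rise in HFD against LFD tumors was 0.21 (adjusted p = 2.9e-05), and the difference between HFD + EC359 and LFD tumors, 0.11, no longer passed (adjusted p = 0.0191).

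P4ha2 (chr11:53914426-53945169, plus strand), an isoform known from cartilage, endothelium, and fibroblasts, measured 76.1, 71.7, and 73.7 CPM in the LFD, 84.4, 84.1, and 77.5 CPM in the HFD, and 59.4, 61.3, and 57.4 CPM in the HFD + EC359 libraries. The HFD + EC359 libraries were all below the others. P4ha2 fell 1.38-fold in HFD + EC359 against HFD tumors (log2 fold change -0.47, SE 0.0575, adjusted p = 1.04e-07) and was 1.24-fold lower than in LFD tumors (adjusted p = 5.38e-05). Its log2 fold change in HFD against LFD tumors, 0.15, did not pass (adjusted p = 0.0308) and was 0.26 after GC correction, which passed (adjusted p = 0.000432).

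P4ha3 (chr7:107434030-107468209, plus strand), the least expressed of the 10 genes per exon length, measured 10.2, 8.79, and 7.23 CPM in the LFD, 11.1, 11.7, and 14.6 CPM in the HFD, and 5.7, 6.54, and 7.9 CPM in the HFD + EC359 libraries. The HFD libraries were above all others, and the LFD and HFD + EC359 libraries overlapped. P4ha3 fell 1.83-fold in HFD + EC359 against HFD tumors (log2 fold change -0.87, SE 0.157, adjusted p = 6.18e-05), and without HFD + EC359 replicate 3 this log2 fold change was -1.02. In HFD against LFD tumors its log2 fold change was 0.51 (SE 0.166) with an adjusted p of 0.01, at the threshold and not under it, and 0.63 after GC correction, which passed (adjusted p = 0.00192). Of the family's summed level, P4ha1 took 57.5% ± 1.19 in LFD, 60.3% ± 0.479 in HFD, and 67.6% ± 0.794 in HFD + EC359 tumors (SD, n = 3), and P4ha2 took 38.1% ± 0.939, 34.5% ± 1.26, and 29.1% ± 1.13.

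Promoter sequences were available in RefSeq (GRCm38.p6) for 5 of the 10 genes, namely Plod1, Plod3, P4ha1, P4ha2, and P4ha3. The windows of the prolyl 4-hydroxylase alpha subunits are shown because these genes differed in how they changed, as the 250 bases before the annotated start, 5′ to 3′. Capitals mark ACGTG or GCGTG on either strand, the core of the hypoxia response element.
P4ha1, chr10:59323046-59323295, + strand: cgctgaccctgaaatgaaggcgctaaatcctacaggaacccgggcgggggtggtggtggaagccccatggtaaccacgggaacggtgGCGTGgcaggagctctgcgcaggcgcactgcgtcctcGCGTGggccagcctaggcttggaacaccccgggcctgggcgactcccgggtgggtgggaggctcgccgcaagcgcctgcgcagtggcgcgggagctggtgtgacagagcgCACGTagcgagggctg
P4ha2, chr11:54100674-54100923, + strand: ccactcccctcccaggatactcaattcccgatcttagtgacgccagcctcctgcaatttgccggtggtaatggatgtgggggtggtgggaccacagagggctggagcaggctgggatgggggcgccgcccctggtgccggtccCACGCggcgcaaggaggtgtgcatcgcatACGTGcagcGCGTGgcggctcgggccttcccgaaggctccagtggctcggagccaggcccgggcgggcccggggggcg
P4ha3, chr7:100285270-100285519, + strand: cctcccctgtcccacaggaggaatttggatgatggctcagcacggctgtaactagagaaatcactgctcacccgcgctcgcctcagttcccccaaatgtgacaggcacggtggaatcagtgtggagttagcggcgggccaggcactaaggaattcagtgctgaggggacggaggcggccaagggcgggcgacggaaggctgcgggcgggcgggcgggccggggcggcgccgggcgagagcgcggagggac
The window of P4ha1 held 3 matches, that of P4ha2 held 3, and that of P4ha3 held 0. The windows of Plod3 and Plod1 held 4 and 1. Of all 32851 promoter windows of this length, 38.6% held at least 1 match, so that a match is common. The letters TTCNNNGAA, to which STAT factors downstream of LIFR bind, were in 7.02% of all windows and in none of these 5, which speaks only of these windows. No matches of these motifs overlapped each other, and a match is a description of the letters and not a binding site.

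Counted over the 10 genes, HFD against LFD tumors gave 5 higher (Lox, Loxl1, Loxl2, Plod2, and P4ha1) and 2 lower (Loxl3 and Plod3), where 19.8% of all 13366 genes tested were higher and 20.5% lower. Only Lox also had a fold change over 2, against 5.71% of all genes in either direction. HFD + EC359 against HFD tumors gave 0 higher and 6 lower (Lox, Loxl1, Loxl2, Plod2, P4ha2, and P4ha3), where 7.95% of all genes were higher and 9.34% lower. At an unadjusted p under 0.05, 1 gene (Plod1) was higher in edgeR's test, and DESeq2 also called 0 higher. Of these, Lox, Loxl1, and Loxl2 had a fold change over 2, against 3.43% of all genes. HFD + EC359 against LFD tumors gave 2 higher (Plod2 and P4ha1) and 5 lower (Loxl1, Loxl2, Loxl3, Plod3, and P4ha2), where 23.7% of all genes were higher and 24.1% lower, and 0 of the 10 had a fold change over 2, against 5.09% of all genes. The median log2 fold change of the 10 genes was 0.37, -0.35, and -0.30 in the 3 comparisons, beside 0.007, 0.006, and 0.011 over all genes. Since the 10 genes were chosen with earlier results known, these shares and medians are a description only. After GC correction the split was 8 higher and 1 lower, 1 higher and 6 lower, and 1 higher and 4 lower, and with library totals as the sole scaling it was 7 higher and 1 lower in HFD against LFD tumors.

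**Figure D3:**
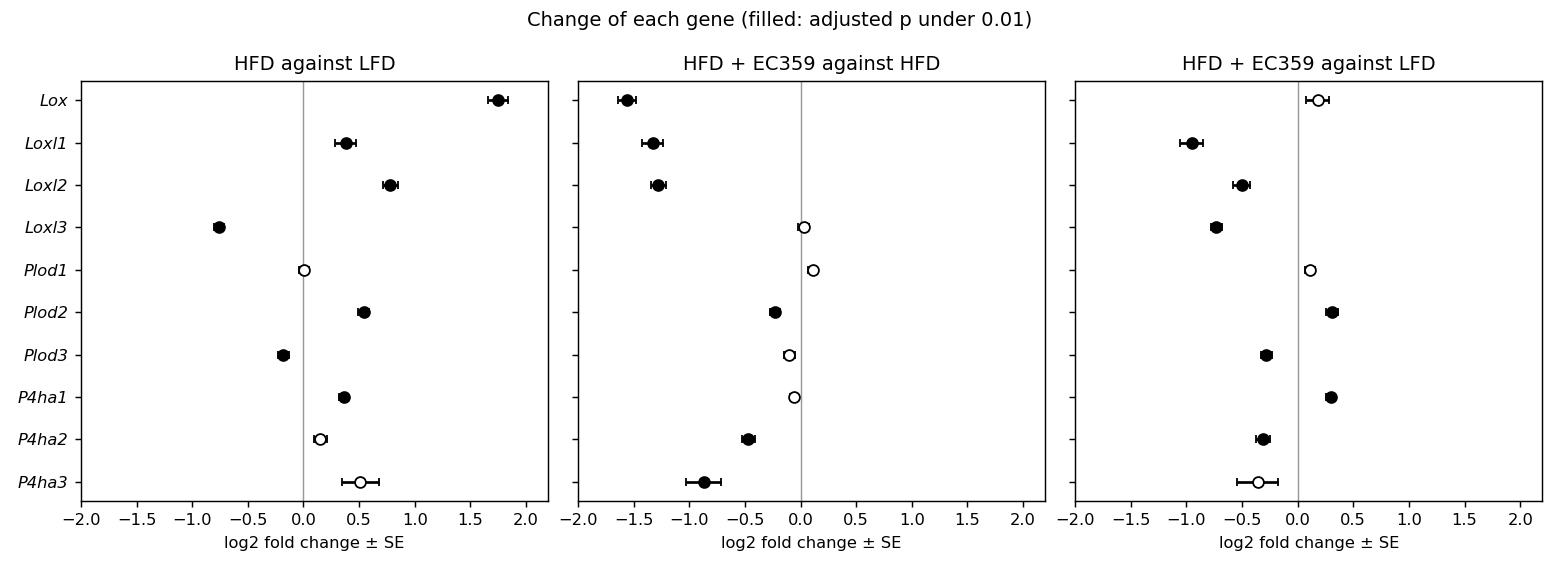
Log2 fold change of each gene with its SE in the 3 comparisons, with filled points for an adjusted p under 0.01. In HFD + EC359 against HFD tumors, Lox, Loxl1, and Loxl2 lay at -1.56 to -1.28, and the other genes lay between -0.87 and 0.11.

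**Figure D4:**
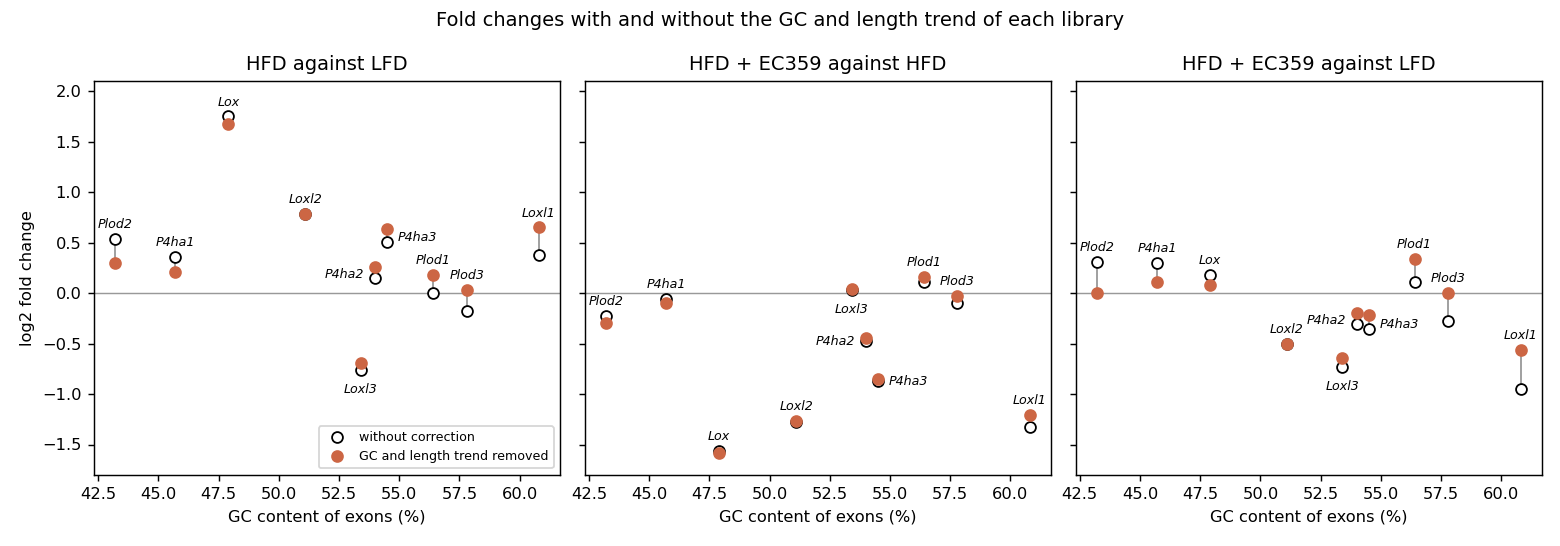
Log2 fold change of each gene against the GC content of its exons (%), without correction (open points) and after GC correction (filled points). The values of Lox and Loxl2 moved little, those of the genes with high GC content (Plod1, Plod3, Loxl1) moved up in HFD against LFD tumors, and those of the genes with low GC content (Plod2, P4ha1) moved down.

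Per exon length, the order of the 10 genes differed between the groups. In LFD tumors Plod3 was highest at 62.2 ± 3.36 RPKM (SD, n = 3), followed by P4ha1 (47.5 ± 0.764 RPKM) and Plod1 (46.5 ± 1.34 RPKM), whose libraries overlapped, and then by Loxl3, P4ha2, Plod2, Loxl1, Loxl2, Lox, and P4ha3. In HFD tumors P4ha1 was highest at 61.1 ± 0.508 RPKM, and Plod2 overlapped P4ha2. Lox (17.4 ± 0.253 RPKM) overlapped Loxl2 (16.9 ± 0.5 RPKM), which overlapped Loxl1 (16.6 ± 0.668 RPKM). In HFD + EC359 tumors P4ha1 was again highest, at 58.7 ± 1.07 RPKM, Plod3 overlapped Plod1, and P4ha2 (25.3 ± 0.828 RPKM) overlapped Loxl3 (24.9 ± 0.907 RPKM). Loxl2, Loxl1, and Lox overlapped there too, at 6.96 ± 0.492, 6.62 ± 1.41, and 5.89 ± 0.509 RPKM. P4ha3 was lowest in every group.

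The enzymes act on collagen chains, so their levels were also set against those of the fibrillar collagens, which make up the bulk of stromal collagen. Of 10 tested fibrillar chains, 6 rose and 0 fell in HFD against LFD tumors, and 0 rose and 9 fell in HFD + EC359 against HFD tumors. Col1a1 went from 4212 ± 506 CPM (SD, n = 3) in LFD to 6870 ± 232 CPM in HFD and 1613 ± 32.7 CPM in HFD + EC359 tumors, with log2 fold changes of 0.71 (adjusted p = 7.12e-15) and -2.09 (adjusted p = 1.36e-27). Col1a2 changed by 0.77 and -2.06 and Col3a1 by 0.98 and -1.98 on the log2 scale, and all of these passed the test. Col5a2 (-1.37), Col5a3 (-1.19), and Col27a1 (-1.02) also fell over 2-fold in HFD + EC359 against HFD tumors. Col11a1 passed as lower (adjusted p = 0.000133) but was near the limit of detection, at 2.49 ± 0.329 CPM in HFD and 0.529 ± 0.279 CPM in HFD + EC359 tumors, so that no fold change is given. Summed, the fibrillar chains were at 1826 ± 192 RPKM in LFD, 2923 ± 89.6 RPKM in HFD, and 798 ± 16.4 RPKM in HFD + EC359 tumors.

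Relative to fibrillar collagen transcripts, the transcripts of all 3 enzyme families were lowest in HFD and highest in HFD + EC359 tumors. This order was the reverse of that of the fibrillar chains, the denominator. No family's own summed level had a higher mean in HFD + EC359 than in HFD tumors. That of the lysyl hydroxylases was nearly level across the groups (134, 138, and 133 RPKM). That of the prolyl 4-hydroxylase alpha subunits was highest in HFD tumors, with 82.7 in LFD and 86.9 RPKM in HFD + EC359 tumors. Per 1000 RPKM of fibrillar chains, the 4 lysyl oxidases (here without Loxl4) stood at 38.1 ± 2.95 RPKM in LFD, 25.8 ± 0.622 RPKM in HFD, and 55.6 ± 1.5 RPKM in HFD + EC359 tumors (SD, n = 3). The lysyl hydroxylases stood at 73.8 ± 6.07, 47.3 ± 1.6, and 166 ± 3.77 RPKM, and the prolyl 4-hydroxylase alpha subunits at 45.6 ± 4.07, 34.7 ± 0.683, and 109 ± 3.33 RPKM. In HFD + EC359 against HFD tumors, the ratio was thus 2.16-fold higher for the oxidases, 3.52-fold higher for the lysyl hydroxylases, and 3.14-fold higher for the prolyl 4-hydroxylase alpha subunits. In HFD against LFD tumors it was 1.47-fold, 1.56-fold, and 1.31-fold lower. The groups did not overlap in any of these 9 tests, and each exact permutation p was 0.1, the smallest the design allows (0.1 after adjustment). The ratios were not recomputed after GC correction.

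**Figure D5:**
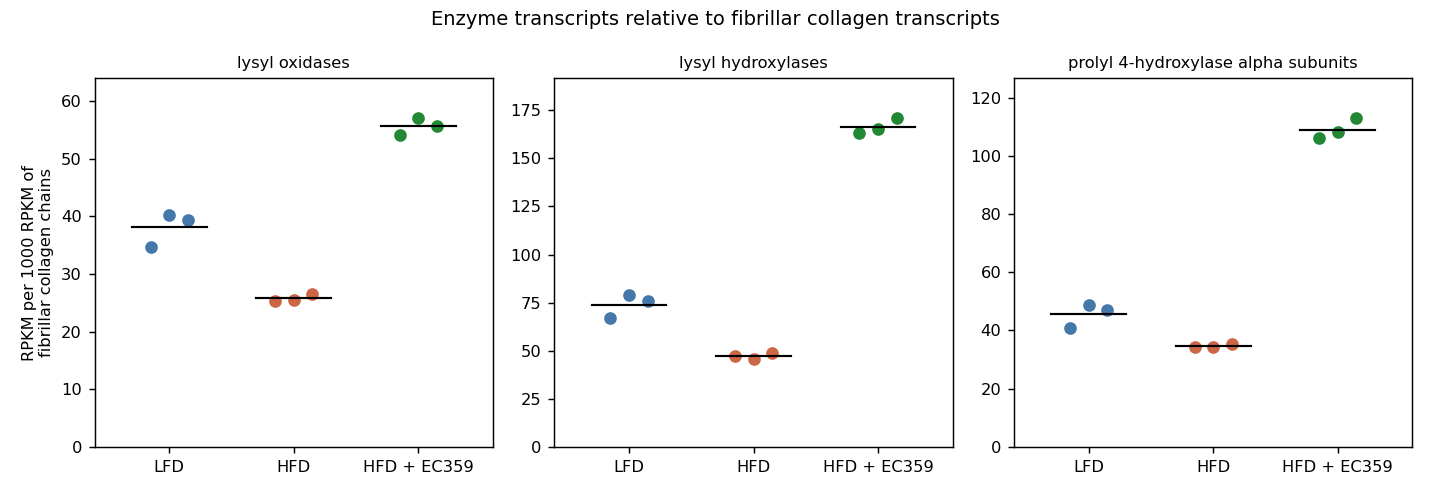
Summed RPKM of each enzyme family per 1000 RPKM of fibrillar collagen chains, in each of the 9 libraries (points) with the group mean (line). The lysyl hydroxylases stood at 163 to 171 in the HFD + EC359 libraries, at 45.7 to 48.9 in the HFD libraries, and at 67 to 78.7 in the LFD libraries.

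Of 13 tested partners of the hydroxylases in the endoplasmic reticulum, 6 rose and 3 fell in HFD against LFD tumors (7 and 2 after GC correction), and 1 rose and 5 fell in HFD + EC359 against HFD tumors. Serpinh1, the collagen chaperone, had log2 fold changes of 0.10 (adjusted p = 0.00891) and -0.27 (adjusted p = 5.77e-08), and P4hb, the beta subunit, of 0.05 (adjusted p = 0.245) and -0.11 (adjusted p = 0.009735). Leprel1, a prolyl 3-hydroxylase gene, fell 2-fold from 29.4 CPM in LFD to 14.6 CPM in HFD tumors (adjusted p = 5.35e-09) and rose by 0.47 on the log2 scale in HFD + EC359 against HFD tumors (adjusted p = 0.00163). After GC correction, its log2 fold change in HFD against LFD tumors was -0.86 (adjusted p = 4.96e-08), which is under 2-fold. Glt25d2, a collagen galactosyltransferase gene, passed as higher in HFD tumors (adjusted p = 0.00809) but was near the limit of detection, at 0.516 ± 0.235 CPM in LFD and 1.69 ± 0.531 CPM in HFD tumors, so that no fold change is given. It did not pass after GC correction (adjusted p = 0.011).

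Genes of procollagen processing and fibril assembly gave 1 higher and 3 lower of 7 tested in HFD against LFD tumors (1 and 1 after GC correction), and 0 higher and 4 lower in HFD + EC359 against HFD tumors. Bmp1, the procollagen C-proteinase that also activates pro-lysyl oxidase, fell by 0.40 and 0.16 on the log2 scale (adjusted p = 1.75e-11 and 0.000418), and Pcolce, its enhancer, fell by 0.26 and 0.14 (adjusted p = 1.58e-06 and 0.0066). After GC correction, the values of Bmp1 were -0.17 and -0.08 and those of Pcolce were -0.02 and -0.08, and of these only the first passed (adjusted p = 9.83e-06). Adamts2, the N-proteinase, was 2.01-fold lower in HFD + EC359 than in LFD tumors (adjusted p = 7.1e-12). After GC correction, this log2 fold change was -0.64 (adjusted p = 1.15e-08), which is under 2-fold. Tnxb, encoding the fibril-associated glycoprotein tenascin X, was at 25.8 ± 2.82, 133 ± 5.45, and 35 ± 2.43 CPM, a rise of 2.37 on the log2 scale (adjusted p = 8.24e-23) and then a fall of 1.92 (adjusted p = 3.88e-22) between the groups in this order.

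Elastic fiber genes and other partners of the lysyl oxidases gave 5 higher and 2 lower of 9 tested in HFD against LFD tumors, and 1 higher and 6 lower in HFD + EC359 against HFD tumors (2 and 5 after GC correction). Eln, the elastin gene and a substrate of the oxidases, was at 21.2 ± 1.89, 39.4 ± 1.31, and 12.8 ± 0.843 CPM, and Fbn1, the fibrillin gene, at 186 ± 4.51, 308 ± 5.77, and 119.9 ± 7.48 CPM in LFD, HFD, and HFD + EC359 tumors (SD, n = 3). Both rose (log2 fold changes 0.90 and 0.73, adjusted p = 2.45e-09 and 4.11e-15) and both fell over 2-fold under EC359 (-1.62 and -1.36). Fn1, the fibronectin gene, rose in both comparisons by 0.22 and 0.18, and Fbln2 fell in HFD against LFD tumors by 0.47 on the log2 scale. Of the 4 tested collagen IV chains, 1 rose and 1 fell in HFD against LFD tumors, and 1 rose and 2 fell in HFD + EC359 against HFD tumors. After GC correction, 4 rose and 0 fell in HFD against LFD tumors. Col4a1 had log2 fold changes of 0.03 (adjusted p = 0.54) and -0.45 (adjusted p = 3.34e-12), and Col4a2 of -0.11 (adjusted p = 0.00741) and -0.37 (adjusted p = 1.8e-10). In HFD against LFD tumors the GC-corrected values of both passed as higher, at 0.21 for Col4a1 (adjusted p = 8.56e-08) and 0.13 for Col4a2 (adjusted p = 0.000119), so that the direction of Col4a2 turned.

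Copper and ascorbate are cofactors of the oxidases and of the hydroxylases, respectively. Of 4 tested genes for their supply, 2 rose and 0 fell in HFD against LFD tumors (1 and 0 after GC correction). In HFD + EC359 against HFD tumors, 0 passed in edgeR's test or in DESeq2. There, 3 were higher at an unadjusted p under 0.05 in edgeR. Atp7a, which loads copper onto secreted enzymes, went from 53.3 ± 8.05 CPM (SD, n = 3) in LFD to 89.7 ± 3.81 CPM in HFD tumors (log2 fold change 0.74, adjusted p = 2.74e-10) and was at 102 ± 4.31 CPM in HFD + EC359 tumors. After GC correction, its log2 fold change in HFD against LFD tumors was 0.38 (adjusted p = 8.42e-06). Slc23a2, an ascorbate transporter gene, had a log2 fold change of 0.13 in HFD against LFD tumors (adjusted p = 0.0404). Several of the 10 genes are known hypoxia targets. Of 14 hypoxia response genes, 2 rose and 4 fell in HFD against LFD tumors (2 and 7 after GC correction), and 1 rose and 7 fell in HFD + EC359 against HFD tumors. Ndrg1 fell by 0.23 and 0.40 and Ldha by 0.23 and 0.11 on the log2 scale in these comparisons. The 2 that rose in HFD against LFD tumors were Vegfa (0.42) and Adm (0.89). In HFD + EC359 against HFD tumors, Vegfa was at -0.69, and the value of Adm, 0.27, did not pass (adjusted p = 0.123). Adm was 1.17 higher on the log2 scale in HFD + EC359 than in LFD tumors.

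Each of the 10 genes was also set beside 72 others, the remaining members and the pathway genes tested, by the root mean square difference of their centred log2 CPM over the 9 libraries. Lox was nearest to Tnxb (0.294), Loxl1 to Col5a2 (0.152), and Loxl2 to Fbn1 (0.0975), all with their highest levels in HFD tumors. Loxl3 was nearest to Crtap (0.111) and then to Loxl4 (0.121). Plod2 was nearest to P4ha1 (0.0965), and P4ha1 to Col4a5 (0.0789). For Plod1 the smallest difference, to Atox1 (0.0669), was larger than the spread of Plod1 around its own mean (0.0583), so no gene is named as alike. The others were nearest to Ldha (Plod3, 0.0547), Col4a1 (P4ha2, 0.0622), and Col24a1 (P4ha3, 0.145). The likeness was read over libraries that share their group and its GC trend, and carries no test.

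Markers of several cell types moved with the same groups. Of 10 fibroblast markers, 8 rose and 0 fell in HFD against LFD tumors, and 1 rose and 6 fell in HFD + EC359 against HFD tumors, with a summed level of 1288 to 1309 CPM in LFD, 1543 to 1564 CPM in HFD, and 1301 to 1322 CPM in HFD + EC359 libraries. Their 2 most abundant genes differed, since Col6a3 fell by 0.77 on the log2 scale under EC359 whereas Pdgfra rose by 0.34. Of 8 pericyte and smooth muscle markers, 5 rose and 1 fell in HFD against LFD tumors, and 0 rose and 5 fell in HFD + EC359 against HFD tumors (213 to 219, 265 to 275, and 170.3 to 177 CPM summed). Its most abundant genes, Notch3 and Acta2, fell by 0.93 and 1.18 on the log2 scale under EC359. Of 8 endothelial markers, 8 rose and 0 fell, and then 0 rose and 6 fell (220.1 to 232, 401 to 425, and 332 to 342 CPM summed), with Cdh5 at 1.22 and -0.19 and Pecam1 at 0.77 and -0.05 on the log2 scale. Of 7 tested epidermis markers, 0 rose and 5 fell, and then 6 rose and 0 fell (1115 to 1294, 167 to 179, and 520.1 to 524 CPM summed). Krt14 (762 CPM on average) and Krt5 (253 CPM) made up most of this sum in LFD libraries. Krt10, of the same list, passed in neither comparison (log2 fold changes 0.06 and -0.05). None of the markers of these 4 lists in the count tables was at 0 in every library, and their part in the changes of the collagen enzymes was not tested.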

How the data were processed

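For each of the 9 libraries the authors deposited a table of expected counts, unnormalized. In it, featureCounts 1.5.0-p1 assigned reverse-stranded read pairs to mm9 genes and split shared pairs into fractions. The submitters' processing notes name HISAT2 2.1.0, whereas the study's methods name TopHat2, HTSeq, and DESeq. Between 1.19% and 3.55% of the genes of a library held fractions, and counts were rounded here. Analyses used R 4.3.3, edgeR 4.0.16 (filterByExpr, TMM, quasi-likelihood test on all 9 libraries in 3 groups, Benjamini-Hochberg over 13366 genes), and DESeq2 1.42.0 as an alternative. CPM was divided by exon length for RPKM. Shares and ratios were compared by exact permutation tests. Floors cover counting error only, whereas each SE was taken from edgeR's quasi-likelihood F statistic and includes the spread between libraries. GC content came from the mm9 sequence and promoters from RefSeq (GRCm38.p6). Of these steps, only the main edgeR test was tried on simulated counts, with planted changes.

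The members and the gene lists were chosen with earlier results of these data known. Named were all members, the 2 tested genes with the highest CPM of each list, pathway genes past the test with a fold change over 2, and the nearest gene of each member. Vegfa, Myh1, Epcam, Cdh1, Krt7, Krt19, Krt10, Col9a1, and Sp7 were named in addition. Alternatives were other scalings and filters, a replicate block, a threshold of 0.05 on the adjusted p, fits of 6 libraries alone, removal of a GC and length trend (a smooth curve per library), thinned counts, and each library left out.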

Additional observations from a re-analysis of the deposited data

How the results depend on the processing

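The counts of the 10 genes past the test stayed within 1.5 times their values under every alternative run, at 6 to 9 against 7 in HFD against LFD, 6 to 7 against 6 in HFD + EC359 against HFD, and 5 to 8 against 7 in HFD + EC359 against LFD. Leaving out 1 library in turn gave 6 to 8, 6, and 7. The number with a fold change over 2 in HFD + EC359 against LFD was 0, and 0 to 1 when leaving out 1 library, since Loxl1 (-1.14) passed 2-fold without HFD + EC359 replicate 2. That in HFD + EC359 against HFD was 3, and 3 to 4 when leaving out 1 library, since P4ha3 (-1.02) passed 2-fold without HFD + EC359 replicate 3. Lox, Loxl1, Loxl2, and Loxl3 kept their direction and call in HFD against LFD under all alternatives, as did Lox, Loxl1, and Loxl2 in HFD + EC359 against HFD. Values near 0 changed sign. Plod1 in HFD against LFD, 0.0031, was -0.0007 with DESeq2, -0.0008 with RLE factors, and -0.02 to 0.02 when leaving out 1 library. Loxl3 in HFD + EC359 against HFD was -0.0021 to 0.05 when leaving out 1 library. After GC correction, Plod3 was at 0.03 in HFD against LFD and 0.0018 in HFD + EC359 against LFD (0.03 and 0.0019 with the replicate block as well). P4ha3 in HFD against LFD (0.51) passed with library totals, both other filters, GC correction, the replicate block, a threshold of 0.05, and when LFD 1, HFD 1, or HFD + EC359 3 was left out, at 0.51 to 0.63. The replicate numbers did not pair the samples: deviations of same-numbered libraries correlated at -0.03 to 0.017, and 0 of 9 libraries correlated best with their own number. The replicate block raised the count in HFD against LFD to 8, by P4ha3, and changed no other call of the 10 genes. Of the pathway genes, 37, 37, and 44 passed in the 3 comparisons, 30, 33, and 43 with DESeq2, and 40, 34, and 38 after GC correction. Counts of 0 given for a list in 1 direction were also 0 with DESeq2 and, besides those of the 10 genes and of copper and ascorbate supply, 0 at an unadjusted p under 0.05 in edgeR for the comparisons HFD against LFD and HFD + EC359 against HFD, except for 1 fibrillar chain lower in the former. No share or ratio changed sign without division by gene length or when leaving out 1 library, nor did a ratio to Col1a1, Col1a2, and Col3a1 alone. Other alternatives were not run for them. Depth limits P4ha3 most among the 10 genes. With 3 libraries per group, the exact tests cannot go below p = 0.1.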

Other observations

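Lists of other cell types were counted beside those of the report. Of 8 macrophage markers, 5 rose and 1 fell in HFD against LFD tumors, and 7 rose and 0 fell in HFD + EC359 against HFD tumors. Mrc1, the mannose receptor gene, fell by 0.36 on the log2 scale and then rose by 0.44, and Csf1r rose by 0.15 and by 0.26. Of 4 tested epithelial markers, 0 rose and 4 fell in HFD against LFD tumors, and 2 rose and 0 fell in HFD + EC359 against HFD tumors. Krt8 fell by 0.55 and Krt18 by 0.73 on the log2 scale in HFD against LFD tumors. Of 7 tested epidermis markers, 0 rose and 5 fell in HFD against LFD tumors, and 6 rose and 0 fell in HFD + EC359 against HFD tumors, with Krt14 at log2 fold changes of -4.23 and 2.54 and Krt5 at -3.05 and 2.23. Of 5 tested adipocyte markers, 2 rose and 1 fell, and then 1 rose and 0 fell, with Fabp4 at 1.66 and Plin4 at -1.18 in HFD against LFD tumors. Of 7 skeletal muscle markers, 2 rose and 1 fell, and then 1 rose and 2 fell. Among them, Myh4 was at 0.53 and -1.47 and Myh1 went the other way, at -1.14 and 1.53, whereas Acta1 passed in neither comparison (-0.12 and -0.30). Of 2 tested cartilage and bone markers, 0 rose and 1 fell, and then 1 rose and 0 fell, with Sox9 at -0.22 in the first comparison and Dmp1 at 1.08 in the second, and Col9a1 and Sp7 were at 0 in every library. The other family gene P4htm, at 1.66 to 2.07 CPM on average in the 3 groups, passed in no comparison.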
